A study of Mus musculus with 9 samples.

Results

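Transcripts of 42 interferon response genes were measured in 9 heart libraries, 3 for Tg-RKIP mice, 3 for mice labelled Tg-GRK2 and 3 for FVB controls without a transgene. Each library came from the heart of another mouse, and the mice were male, of FVB/N strain and 8 months old, without any treatment named in the labels. Tg-RKIP mice overexpress RKIP (Raf kinase inhibitor protein, gene Pebp1) in heart muscle under the alpha-MHC promoter, and the depositors describe signs of heart failure in them. For Tg-GRK2 mice, the promoter of the transgene is not given in the sources used here. The libraries were made from whole pulverised hearts, in which fewer cells of a type and less RNA per cell cannot be told apart. The genes were chosen by name as interferon-responsive genes outside the IRG and GBP families of interferon-inducible GTPases, and they are 42 of 41710 gene names in the tables. By the interferon they are known to respond to or to signal for, 34 were taken as type I leaning and 8 as interferon-gamma leaning. The 42 genes had reads in each group, and every one passed the expression filter, which left 15504 genes for testing.

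Type I interferons (the alpha and beta interferons) bind the receptor IFNAR1-IFNAR2, which acts through the kinases JAK1 and TYK2 on transcription factors such as STAT2. With IRF9, STAT2 takes part in a complex that binds the interferon-stimulated response element (ISRE) in the promoters of antiviral genes. Interferon-gamma, a product of T and NK cells, binds IFNGR1-IFNGR2 and acts through the gamma-activated site (GAS) of genes such as Irf1. In heart muscle, as in other tissues, many of these genes have a basal level of transcripts without infection.

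To show the regulatory sequence of the genes on which the results turn, the 250 bases before the gene start were taken from RefSeq (GRCm38.p6), in which 31 of the 42 genes had an entry. Dhx58, Zbp1, Oas2, Usp18, Mx1, Mx2, Ifi27, Rtp4, Parp14, Nlrc5 and Ciita had no entry. Both strands were searched for the ISRE core GAAANNGAAA and for the GAS core TTCNNNGAA. The ISRE core was found before 11 of the 31 genes (35.5%) and in 2.98% of all 32851 promoters of the table. The GAS core was found before 7 of the 31 genes (22.6%) and in 7.02% of all promoters. A gene was counted when any of its promoters held a match, and some genes had several promoters. The share of genes and the share of promoters are thus not in the same unit. In Bst2, 1 of 2 ISRE matches shared bases with a GAS match, and in Oas1a none of 2 did. The following stretches are given 5′ to 3′ on the strand of the gene, with the matches in capitals. The first 4 carry an ISRE core and belong to antiviral effectors whose transcripts were higher in Tg-RKIP hearts than in FVB controls.
Ifit1 (chr19:34640639-34640888, plus strand): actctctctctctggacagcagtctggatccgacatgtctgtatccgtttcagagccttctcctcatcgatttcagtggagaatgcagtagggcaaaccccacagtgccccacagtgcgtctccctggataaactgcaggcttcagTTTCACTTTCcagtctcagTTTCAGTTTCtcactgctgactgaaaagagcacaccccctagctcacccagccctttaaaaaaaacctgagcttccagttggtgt
Ifit3 (chr19:34583279-34583528, plus strand): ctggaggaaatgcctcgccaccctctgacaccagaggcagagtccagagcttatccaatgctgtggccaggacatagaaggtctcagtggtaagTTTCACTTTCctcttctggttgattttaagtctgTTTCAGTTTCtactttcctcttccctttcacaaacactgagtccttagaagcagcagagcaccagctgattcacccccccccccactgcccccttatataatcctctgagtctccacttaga
Ifit3b (chr19:34607707-34607956, plus strand): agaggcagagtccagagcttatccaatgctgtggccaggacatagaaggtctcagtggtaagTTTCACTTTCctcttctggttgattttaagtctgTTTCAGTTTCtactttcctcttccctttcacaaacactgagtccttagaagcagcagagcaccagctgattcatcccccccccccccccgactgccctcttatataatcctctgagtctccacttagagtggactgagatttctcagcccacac
Isg15 (chr4:156200819-156201068, minus strand): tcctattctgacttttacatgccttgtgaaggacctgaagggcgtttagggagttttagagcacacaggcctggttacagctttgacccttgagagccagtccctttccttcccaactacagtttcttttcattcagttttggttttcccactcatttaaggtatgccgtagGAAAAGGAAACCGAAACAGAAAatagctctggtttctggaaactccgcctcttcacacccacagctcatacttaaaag
The next sequence also carries an ISRE core, but its gene, the antiviral enzyme viperin, had lower transcript levels in Tg-RKIP hearts.
Rsad2 (chr12:26456453-26456702, minus strand): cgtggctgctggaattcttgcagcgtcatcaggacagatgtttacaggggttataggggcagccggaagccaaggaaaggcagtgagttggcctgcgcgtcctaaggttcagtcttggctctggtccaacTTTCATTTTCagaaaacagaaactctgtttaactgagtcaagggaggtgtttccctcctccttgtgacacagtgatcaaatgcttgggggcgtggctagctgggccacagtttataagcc
The last pair carries a GAS core and belongs to interferon-gamma leaning transcription factors, of which Irf8 was higher and Irf1 lower in Tg-RKIP hearts, the latter with a direction that turned under other scalings.
Irf1 (chr11:53769764-53770013, plus strand): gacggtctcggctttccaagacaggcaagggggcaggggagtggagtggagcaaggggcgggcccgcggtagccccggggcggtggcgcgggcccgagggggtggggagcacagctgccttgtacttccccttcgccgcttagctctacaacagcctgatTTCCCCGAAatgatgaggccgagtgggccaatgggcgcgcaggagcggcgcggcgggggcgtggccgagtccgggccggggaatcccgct
Irf8 (chr8:120736108-120736357, plus strand): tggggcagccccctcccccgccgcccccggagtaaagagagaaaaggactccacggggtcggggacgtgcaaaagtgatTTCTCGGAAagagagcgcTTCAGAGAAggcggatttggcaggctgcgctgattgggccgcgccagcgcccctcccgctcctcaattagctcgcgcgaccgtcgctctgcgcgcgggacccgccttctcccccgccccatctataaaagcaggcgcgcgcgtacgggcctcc
Ifit3 and Ifit3b lie next to each other on chromosome 19 and have similar upstream sequences, with the same base at 188 of 218 positions (86.2%) when 1 is shifted by 32 bases. Of the 11 genes with an ISRE core, 8 were higher in Tg-RKIP hearts than in FVB (Bst2, Ifit1, Ifit3, Ifit3b, Isg15, Oas1a, Oas3 and Socs1), 2 were lower (Rsad2 and Stat2) and 1 did not pass the test, where 36.8% of all genes tested were higher and 37.1% lower. Isg15 and Oas1a of these 8 lost their call when single libraries were left out. In the libraries labelled Tg-GRK2, 3 of the 11 were lower than in FVB (Ifit3, Stat2 and Trim30a) and 8 did not pass, where 12.2% of all genes were higher and 12.2% lower. Of the 7 genes with a GAS core, 5 were higher in Tg-RKIP hearts (Bst2, Ifnar2, Irf8, Isg20 and Oas1a), 1 was lower (Irf1, higher under other scalings) and 1 did not pass, against the same 36.8% and 37.1% of all genes. In Tg-GRK2, 1 of the 7 was higher (Isg20), 2 were lower (Ifit2 and Irf1) and 4 did not pass. A match is a run of letters, and binding was not measured.

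The libraries held between 25458108 and 33447654 reads on transcripts. Pebp1 reached 252196 to 321666 reads in the Tg-RKIP libraries and 7140 to 8446 in the other 6. Grk2 was at 27.3 ± 2.90 TPM (transcript levels per transcript length, scaled to the same total in each library; mean ± SD, n = 3) in the libraries labelled Tg-GRK2 and at 27.1 ± 1.05 TPM in FVB, so these libraries are named by their label. One of them, Tg-GRK2 library 1, stood apart with 384039 reads of the ribosomal RNA Rn18s, against 55110 to 78546 in the others. Mitochondrial genes took 11.5% to 11.8% of the reads in Tg-RKIP, 22.4% to 22.9% in Tg-GRK2 and 22.9% to 23.2% in FVB. Reads were therefore normalised by TMM (trimmed mean of M-values), and levels below are such normalised reads unless TPM is named. Differences are log2 fold changes of the same quantity with their standard error (SE), and adjusted p-values come from the quasi-likelihood test of edgeR. With 3 libraries against 3, an exact two-sided permutation test of a single gene cannot go below p = 0.1, the value it gave for groups that did not overlap.

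In Tg-RKIP hearts the interferon genes went in both directions. Compared to FVB controls, 18 of the 42 genes were higher (42.9%), 11 were lower (26.2%) and 13 did not pass the threshold. Over all 15504 genes tested, 36.8% were higher and 37.1% were lower. The median log2 fold change was 0.19 over the 42 genes and 0.01 over all genes. Of the 34 type I leaning genes, 15 were higher, 7 lower and 12 not past the threshold, with a median of 0.31. Of the 8 interferon-gamma leaning genes, 3 were higher, 4 lower and 1 not past it, with a median of -0.18. Scaling to library size only does not correct for the lower share of mitochondrial reads or for other differences in composition. With this scaling the split of 18 higher and 11 lower became 30 and 9. With limma on log2(TPM + 0.1), where 37 of the genes passed the filter, the split became 27 and 6. The median over all genes also moved upward under both, and the shares of all genes called there were not counted.

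In the libraries labelled Tg-GRK2 the changes were smaller and mostly downward. Compared to FVB, 3 of the 42 genes were higher (7.14%), 13 were lower (31.0%) and 26 did not pass. Over all genes tested, 12.2% were higher and 12.2% lower. The median was -0.12 over the 42 genes and 0.00 over all genes. Of the type I leaning genes 2 were higher and 9 lower, and of the interferon-gamma leaning genes 1 was higher and 4 were lower. Without Tg-GRK2 library 1 the counts were again 3 higher and 13 lower, and with limma on log2(TPM + 0.1) they were 3 higher and 7 lower. Both comparisons use the same 3 FVB libraries. In the direct comparison of Tg-RKIP with Tg-GRK2 hearts, 21 genes were higher (50.0%), 9 lower (21.4%) and 12 not past the threshold, against 37.9% higher and 36.6% lower over all genes. That split became 31 and 5 with scaling to library size only, and 26 and 5 with limma on log2(TPM + 0.1). Shares over all genes were not counted for these alternatives.

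**Figure D1:**
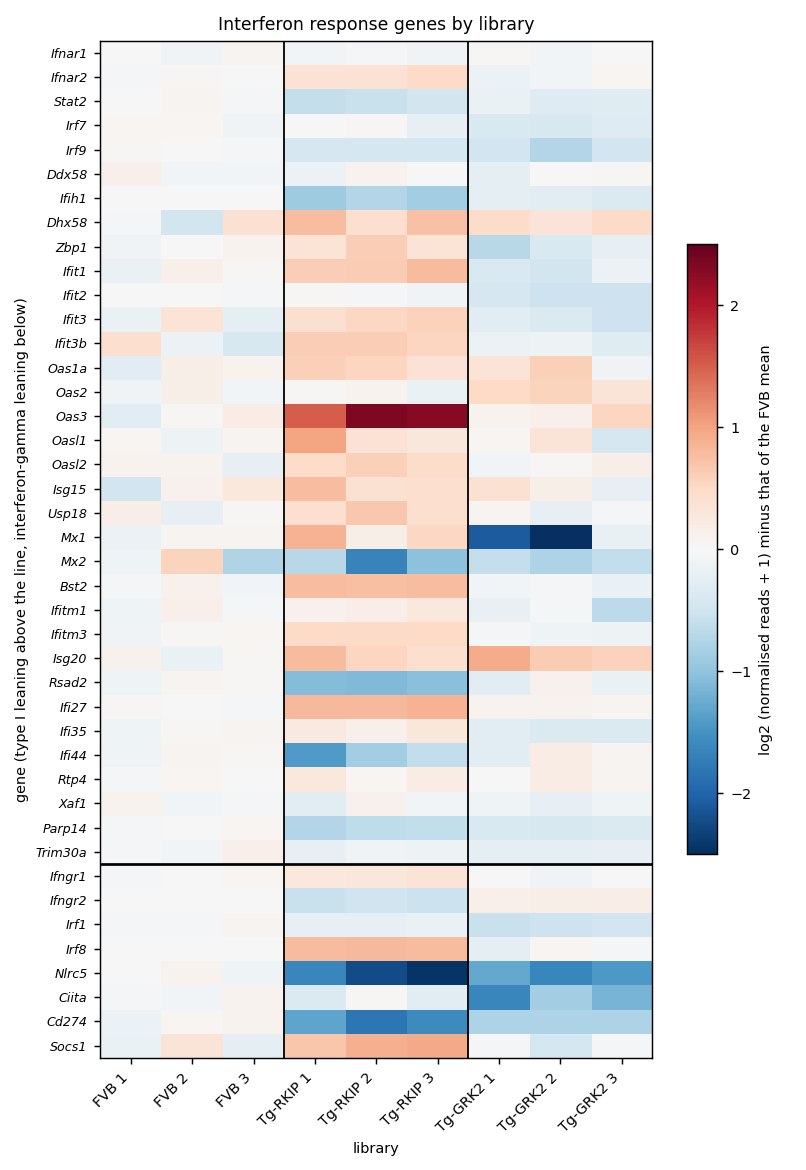
Normalised reads of the 42 genes in each of the 9 libraries, as the log2 of reads + 1 minus that of the FVB mean (colour; columns are libraries, rows are genes, type I leaning genes above the line and interferon-gamma leaning genes below). Red and blue rows stand side by side in Tg-RKIP, where 18 genes were higher and 11 lower, while blue prevails in Tg-GRK2, where 3 were higher and 13 lower.

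**Figure D2:**
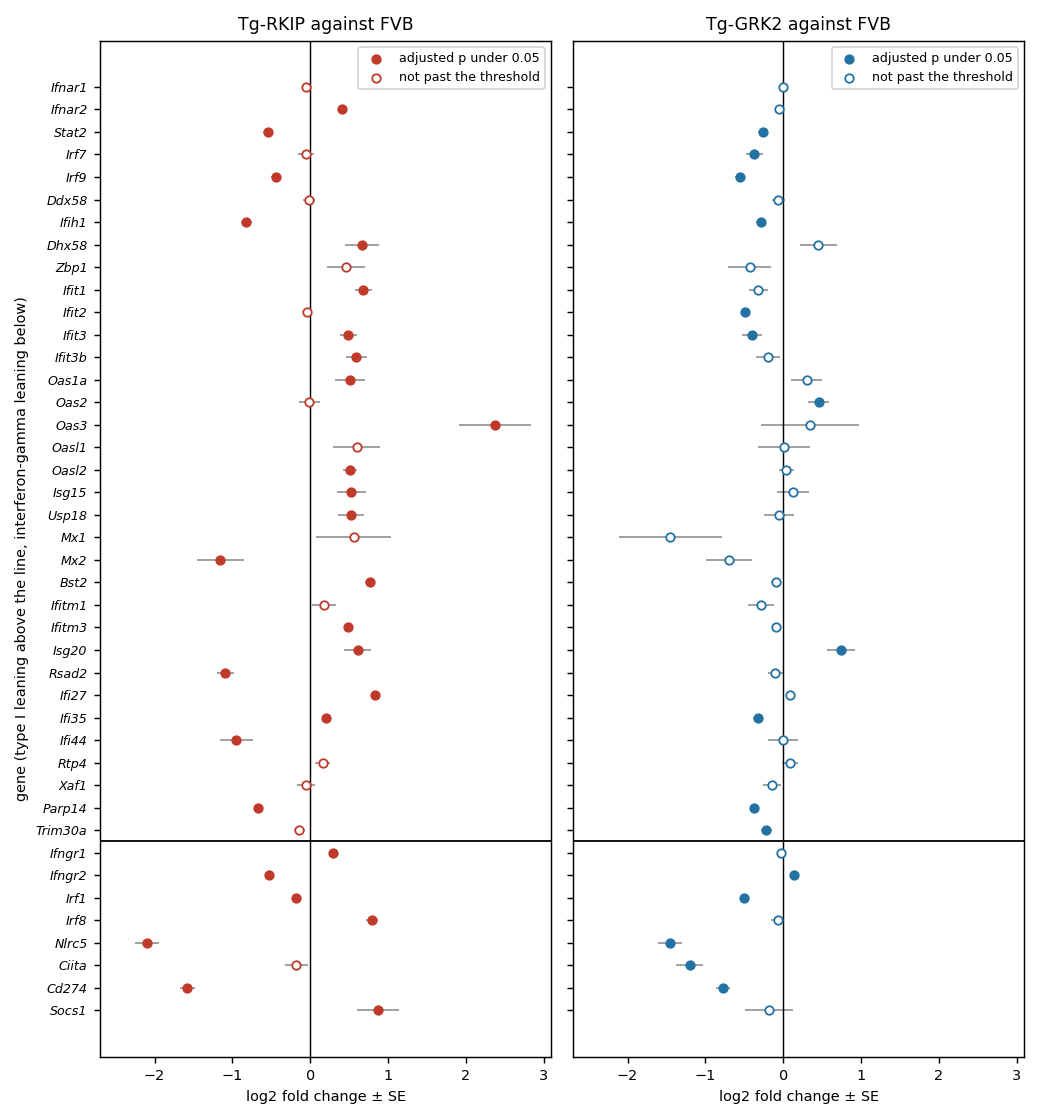
Log2 fold change with SE of each gene in Tg-RKIP (left) and Tg-GRK2 (right) against the same FVB libraries; filled points passed an adjusted p under 0.05 and open points did not. Oas3 (2.38) and Nlrc5 (-2.10) mark the ends of the range in Tg-RKIP, and Nlrc5 and Ciita lie at -1.45 and -1.20 among the called genes of Tg-GRK2.

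Markers of immune and connective tissue cells differed between the groups as well. Beside the marker counts below, 36.8% of all genes tested were higher in Tg-RKIP than in FVB and 37.1% were lower. Summed over 10 macrophage markers, transcript levels were 197 to 203 TPM in FVB hearts, 491 to 497 in Tg-RKIP and 214 to 218 in Tg-GRK2, and 8 of the 10 were higher in Tg-RKIP than in FVB while 1 was lower. The 12 T and NK cell markers summed to 4.53 to 4.99 TPM in FVB hearts, 9.63 to 13.4 in Tg-RKIP and 2.75 to 3.42 TPM in Tg-GRK2, and 8 of the 9 tested were higher in Tg-RKIP. The 5 B and plasma cell markers summed to 2.33 to 2.61, 26.2 to 28.0 and 5.751 to 6.998 TPM in FVB, Tg-RKIP and Tg-GRK2. Also higher in Tg-RKIP than in FVB was the sum of dendritic cell markers (7.14 to 7.34, 12.7 to 13.7 and 7.56 to 8.03 TPM in FVB, Tg-RKIP and Tg-GRK2). Of these 7 markers, 5 were higher in Tg-RKIP than in FVB and 1 was lower in normalised reads. Neutrophil markers summed to 0.56 to 1.40, 9.27 to 10.3 and 2.37 to 3.12 TPM, with Ly6g at 0 in FVB and Tg-GRK2. All 3 neutrophil markers tested were higher in Tg-RKIP than in FVB. Fibroblast markers reached 800 to 833, 1913 to 1919 and 868 to 876 TPM, and endothelial markers 260 to 262, 329 to 333 and 267 to 274 TPM. Airway and lung epithelium markers, chiefly the club cell gene Scgb1a1, were at 0.051 to 0.14 TPM in FVB hearts, 56.4 to 58.6 in Tg-RKIP and 141 to 148 in Tg-GRK2, and Scgb1a1, Scgb3a2 and Sftpc were at 0 in all FVB libraries. Cardiomyocyte markers summed to between 27706 and 29153 TPM in the 9 libraries. The TPM of most genes were higher in Tg-RKIP than in FVB, with a median difference of 0.43 on the log2(TPM + 0.1) scale over all genes. Mitochondrial reads were fewer in the same libraries, and their part in this median was not tested. In normalised reads 3 of 6 endothelial markers rose and 3 fell in Tg-RKIP hearts, and of 7 cardiomyocyte markers 1 was higher and 6 were lower. These lists moved with the groups, and their part in the interferon gene results was not tested.

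**Figure D3:**
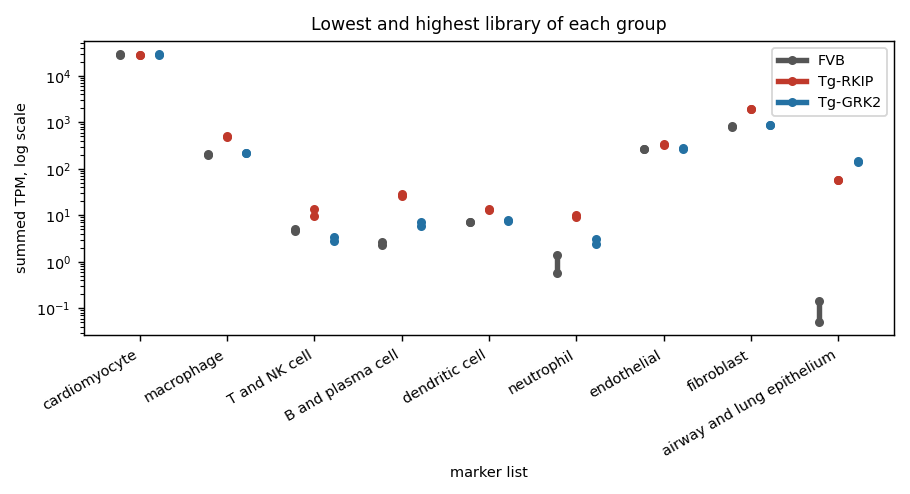
Summed TPM (log axis) of each marker list in the lowest and the highest library of each group, joined by a line. The Tg-RKIP libraries lie above both other groups for macrophage, T and NK, B and plasma, dendritic cell, neutrophil, endothelial and fibroblast markers, and the airway and lung markers are highest in Tg-GRK2.

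The receptor chains of type I interferon differed from each other. Ifnar2, the chain that carries most of the ligand affinity, was at 1071, 1069 and 1159 normalised reads in Tg-RKIP, 803, 850 and 834 in FVB and 751, 794 and 855 in Tg-GRK2. The Tg-RKIP libraries lay above all others, with a log2 fold change of 0.40 (SE 0.05, adjusted p = 9.2e-08) against FVB. In Tg-GRK2 the value was -0.05 (adjusted p = 0.542). Most of the Ifnar2 reads fell on the transcript ENSMUST00000117836 of 1099 bases, with 726 ± 26.7 normalised reads in Tg-RKIP and 503 ± 49.2 in FVB (n = 3). The longest transcript, ENSMUST00000023693 of 3047 bases, was at 346 ± 25.1 and 226 ± 45.9. The protein-coding ENSMUST00000089042 of 2580 bases went the other way, with 20.9 ± 20.2 in Tg-RKIP and 90.8 ± 10.5 in FVB. Ifnar1, the signalling partner chain, had overlapping groups and a log2 fold change of -0.05 in Tg-RKIP (adjusted p = 0.308) and -0.01 in Tg-GRK2 (adjusted p = 0.915); with library size scaling its value in Tg-RKIP turned to 0.32 (adjusted p = 9.47e-07).

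Of the transcription factors that carry the type I signal, Stat2 and Irf9 were lower in both transgenic groups than in FVB. Stat2, a subunit of the complex that binds the ISRE, was at 276, 282 and 302 normalised reads in Tg-RKIP, 372, 335 and 340 in Tg-GRK2 and 413, 437 and 403 in FVB. The 3 groups did not overlap. The log2 fold change was -0.55 (SE 0.07, adjusted p = 1.38e-07) in Tg-RKIP and -0.26 (SE 0.06, adjusted p = 0.00453) in Tg-GRK2. On log2(TPM + 0.1) these values were -0.13 and -0.15 and did not pass. Irf9, the DNA-binding subunit of the factor, was at 389, 382 and 384 in Tg-RKIP, 372, 314 and 376 in Tg-GRK2 and 532, 520 and 511 in FVB. Both transgenic groups lay below FVB, by -0.44 (SE 0.06, adjusted p = 1.36e-06) and -0.55 (SE 0.06, adjusted p = 1.02e-06), but in Tg-RKIP the difference fell to -0.06 with library size scaling and to -0.01 on the TPM scale, and did not pass in either. Irf7, which amplifies the type I response, was at 148, 149 and 127 in Tg-RKIP, 112, 111 and 117 in Tg-GRK2 and 151, 151 and 137 in FVB. It was lower in Tg-GRK2 (-0.37, SE 0.11, adjusted p = 0.0161) and did not pass in Tg-RKIP (-0.05, adjusted p = 0.671; turned to 0.32, adjusted p = 0.00677, with library size scaling), and the direct difference between Tg-RKIP and Tg-GRK2 was 0.32 (adjusted p = 0.00965). That call in Tg-GRK2 was lost without FVB library 1 (adjusted p = 0.0506) or 2 (adjusted p = 0.0581) and with DESeq2 (adjusted p = 0.0639).

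Among the sensors of foreign nucleic acid, the MDA5 gene and the LGP2 gene moved in opposite directions in Tg-RKIP hearts. Ifih1, which encodes the long-RNA sensor MDA5, was at 198, 223 and 203 normalised reads in Tg-RKIP, 313, 310 and 288 in Tg-GRK2 and 371, 372 and 367 in FVB. No library of a group overlapped with another group. The log2 fold change was -0.82 (SE 0.07, adjusted p = 6.75e-10) in Tg-RKIP and -0.29 (SE 0.07, adjusted p = 0.00309) in Tg-GRK2, and the latter call was lost on log2(TPM + 0.1) (-0.14, adjusted p = 0.265). Dhx58, which encodes LGP2, a regulator of these sensors, was low, with 51.4, 40.1 and 49.9 normalised reads in Tg-RKIP and 28.9, 21.5 and 38.9 in FVB. It was higher in Tg-RKIP by 0.67 (SE 0.22, adjusted p = 0.0107), a call that was lost without FVB library 2 (0.46, adjusted p = 0.0869). In Tg-GRK2 Dhx58 was at 41.0, 37.6 and 42.1, which overlapped with Tg-RKIP. There it did not pass against FVB (0.45, adjusted p = 0.182), and the direct comparison did not pass either (0.22, adjusted p = 0.356). Ddx58, which encodes the RNA sensor RIG-I, had a gene sum of -0.01 on the log2 scale (adjusted p = 0.918) in Tg-RKIP and -0.06 (adjusted p = 0.636) in Tg-GRK2, and in Tg-RKIP it turned to 0.37 (adjusted p = 0.000183) with library size scaling and to 0.41 (adjusted p = 0.00146) on log2(TPM + 0.1). Its reads were divided otherwise among transcripts. The protein-coding transcript ENSMUST00000037907 was at 145 ± 9.3 normalised reads in Tg-RKIP and 252 ± 60.2 in FVB, and the non-coding ENSMUST00000137903 at 245 ± 36.1 and 132 ± 28.2. Zbp1, a sensor of Z-form nucleic acid, was at 29.9, 36.5 and 29.8 in Tg-RKIP, 14.0, 17.7 and 20.1 in Tg-GRK2 and 21.9, 23.5 and 24.8 in FVB. It did not pass against FVB (0.46, adjusted p = 0.092; and -0.43, adjusted p = 0.296), but the direct comparison of both transgenic groups gave 0.89 (SE 0.25, adjusted p = 0.00335). In Tg-RKIP against FVB, Zbp1 passed with library size scaling (0.84, adjusted p = 0.00359) and on log2(TPM + 0.1) (0.67, adjusted p = 0.00309).

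The IFIT genes, whose proteins bind foreign RNA and block its translation, lie in a row on chromosome 19 (chr19:34528094-34553819 for Ifit2, chr19:34560931-34566131 for Ifit3, chr19:34585370-34590801 for Ifit3b and chr19:34618271-34627409 for Ifit1; GRCm39, the build named in the labels). In Tg-RKIP hearts 3 of the 4 were higher than in FVB, where 36.8% of all genes tested were higher. Ifit1 was at 187, 189 and 210 normalised reads in Tg-RKIP, 107, 133 and 124 in FVB and 92.8, 88.6 and 110 in Tg-GRK2. Its Tg-RKIP libraries were above all others, and the log2 fold change was 0.68 (SE 0.11, adjusted p = 8.63e-06) against FVB and 1.00 (SE 0.11, adjusted p = 5.06e-08) against Tg-GRK2. Between Tg-GRK2 and FVB it was -0.32 (adjusted p = 0.0701), and it passed without Tg-GRK2 library 3 (-0.42, adjusted p = 0.0331) or FVB library 1 (-0.40, adjusted p = 0.0368). Ifit3 was at 245, 267 and 275 in Tg-RKIP, 164, 235 and 157 in FVB and 153, 144 and 129 in Tg-GRK2. It was higher in Tg-RKIP by 0.49 (SE 0.11, adjusted p = 0.000569) and lower in Tg-GRK2 by -0.40 (SE 0.13, adjusted p = 0.028). FVB library 2 was the highest of its group, and without it the Tg-GRK2 value was -0.18 (adjusted p = 0.304). That call was also lost without Tg-GRK2 library 2 (adjusted p = 0.0596) or 3 (adjusted p = 0.12). Ifit3b, a near copy of Ifit3, was at 184, 183 and 174 in Tg-RKIP against 161, 108 and 90.8 in FVB, a difference of 0.59 (SE 0.14, adjusted p = 0.000594), and reads that fit both copies may have been divided between them. Ifit2 was at 660, 623 and 605 in Tg-RKIP, 649, 653 and 633 in FVB and 480, 452 and 450 in Tg-GRK2. It overlapped with FVB in Tg-RKIP (-0.04, adjusted p = 0.505; turned to 0.34 with library size scaling, adjusted p = 1.46e-06, and to 0.37 on log2(TPM + 0.1), adjusted p = 0.000132) and was lower in Tg-GRK2 by -0.49 (SE 0.05, adjusted p = 4.07e-07). In the direct comparison all 4 genes were higher in Tg-RKIP than in Tg-GRK2, where 37.9% of all genes tested were higher.

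The OAS genes encode 2′-5′ oligoadenylate synthetases, which activate the RNA-degrading enzyme RNase L, or related proteins without that activity. Oas3 had 2, 3 and 3 reads in the FVB libraries and 56 reads in all in Tg-RKIP. Per effective library size the ratio of summed reads was 5.42 (95% exact interval 2.57 to 13.2, for counting error only), and the test gave 2.38 (SE 0.46, adjusted p = 9.19e-05). At 0.29 ± 0.14 in Tg-RKIP and 0.074 ± 0.081 in FVB on the TPM scale this gene was close to the floor of the data. Oasl2 was at 268, 294 and 268 normalised reads in Tg-RKIP, 207, 207 and 170 in FVB and 186, 199 and 215 in Tg-GRK2. It was higher in Tg-RKIP by 0.51 (SE 0.09, adjusted p = 2.28e-05). The transcript with most Oasl2 reads, ENSMUST00000144064, carries the annotation nonsense-mediated decay. Its deposited counts were 228, 308 and 230 for Tg-RKIP libraries against 128, 125 and 84 for FVB controls. The longest protein-coding transcript, ENSMUST00000031542, had counts of 38, 73 and 14 against 34, 57 and 54, which overlapped. For the shorter coding ENSMUST00000150361 the counts were 6, 16 and 13 against 0, 0 and 2. Oas1a was at 73.0, 70.1 and 61.4 in Tg-RKIP and 39.3, 53.1 and 50.7 in FVB, with a difference of 0.51 (SE 0.19, adjusted p = 0.0193). That call was lost without Tg-RKIP library 1 (adjusted p = 0.0611) or 2 (adjusted p = 0.0523) or without FVB library 1 (adjusted p = 0.0974). In Tg-GRK2 Oas1a was at 60.4, 73.1 and 44.9, which overlapped with Tg-RKIP and FVB. The direct comparison of Tg-RKIP with Tg-GRK2 did not pass (0.21, adjusted p = 0.298). Oas2 was the member of this family that passed in Tg-GRK2. It was at 106, 111 and 94.6 there, against 70.4, 82.8 and 71.9 in FVB and 76.7, 79.6 and 67.2 in Tg-RKIP. The difference was 0.46 (SE 0.14, adjusted p = 0.0174) in Tg-GRK2, lost without Tg-GRK2 library 2 (adjusted p = 0.0674) or without FVB library 1 (adjusted p = 0.0627) or 3 (adjusted p = 0.0563). In Tg-RKIP it was -0.01 (adjusted p = 0.955) and turned to 0.37 with library size scaling. Oasl1 did not pass in either comparison (0.60, adjusted p = 0.0846; and 0.01, adjusted p = 0.992), but passed in Tg-RKIP with library size scaling (0.97, adjusted p = 0.00642).

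Isg15, a ubiquitin-like protein that is joined to other proteins in the interferon response, and Usp18, the protease that removes it and dampens IFNAR signalling, were both higher in Tg-RKIP hearts. Isg15 was at 100, 76.6 and 78.7 normalised reads in Tg-RKIP, 41.6, 63.4 and 70.8 in FVB and 76.6, 65.3 and 50.7 in Tg-GRK2. The Tg-RKIP and FVB libraries did not overlap, and the difference was 0.53 (SE 0.19, adjusted p = 0.016). Without Tg-RKIP library 1 it was 0.40 (adjusted p = 0.091) and without FVB library 1 it was 0.34 (adjusted p = 0.117). Usp18 was at 63.6, 75.9 and 63.4 in Tg-RKIP, 53.1, 40.9 and 48.4 in FVB and 49.6, 41.0 and 45.9 in Tg-GRK2, with a difference of 0.52 (SE 0.17, adjusted p = 0.00914) in Tg-RKIP that did not pass without Tg-RKIP library 2 (0.42, adjusted p = 0.064) or FVB library 2 (0.42, adjusted p = 0.058). In Tg-GRK2 Isg15 (0.12, adjusted p = 0.729) and Usp18 (-0.05, adjusted p = 0.877) did not pass.

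Mx1 and Mx2 encode large antiviral GTPases of the dynamin family, which are not of the IRG or GBP families. Most Mx1 reads fell on ENSMUST00000113768, annotated as polymorphic pseudogene, and ENSMUST00000155233, annotated as processed transcript. The longest protein-coding Mx1 transcript, ENSMUST00000023655, had 0 reads in every library. Another protein-coding transcript, ENSMUST00000232193, had 2, 3 and 0 reads in FVB and 0 in every other library. In Mx2, ENSMUST00000188251, also annotated as polymorphic pseudogene, held 27, 17 and 20 reads in Tg-RKIP and 33, 61 and 3 in FVB. Mx1 was near the floor. It had 1, 0 and 7 reads in the Tg-GRK2 libraries and 6, 8 and 7 reads in FVB. It passed neither against FVB (0.56, adjusted p = 0.30 in Tg-RKIP; -1.45, adjusted p = 0.124 in Tg-GRK2), while the direct comparison gave 2.01 (SE 0.59, adjusted p = 0.00423), with a ratio of summed reads of 4.13 (95% exact interval 1.91 to 10.2). Without Tg-GRK2 library 3, which held 7 of the 8 reads of that group, the Tg-GRK2 value was -3.56 (adjusted p = 0.00888). Mx2 was at 28.1, 13.9 and 22.1 normalised reads in Tg-RKIP. In FVB it was at 42.7, 68.5 and 27.1, the groups overlapped, and the difference of -1.16 (SE 0.30, adjusted p = 0.00181) became -0.51 on log2(TPM + 0.1), where it did not pass (adjusted p = 0.195). In Tg-GRK2 Mx2 was at 30.2, 26.6 and 29.6, with -0.69 against FVB (adjusted p = 0.0988; -0.96, adjusted p = 0.0195 without FVB library 3).

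Of the genes for membrane proteins that hold back virus entry or release, 2 of 3 were higher in Tg-RKIP hearts than in FVB. Of all genes tested, 36.8% were higher in that comparison. Bst2, which encodes tetherin, was at 566, 556 and 564 normalised reads in Tg-RKIP, 316, 357 and 314 in FVB and 314, 322 and 294 in Tg-GRK2. Each Tg-RKIP library was above every other library, by 0.77 (SE 0.06, adjusted p = 1.36e-10) against FVB. Ifitm3, which blocks the fusion of virus with endosomes, had the highest TPM of the 42 genes in FVB and in Tg-RKIP, with 113 ± 5.41 and 212 ± 2.33. In normalised reads it was at 2276, 2246 and 2291 in Tg-RKIP, 1522, 1658 and 1678 in FVB and 1588, 1507 and 1482 in Tg-GRK2. It was higher in Tg-RKIP by 0.49 (SE 0.04, adjusted p = 3.94e-11) and differed in Tg-GRK2 by -0.09 (adjusted p = 0.0991; -0.12, adjusted p = 0.0419 without Tg-GRK2 library 1; and -0.13, adjusted p = 0.015 without FVB library 1). Ifitm1, a relative of Ifitm3 at the cell surface, passed neither against FVB (0.18, adjusted p = 0.306; and -0.28, adjusted p = 0.242), while the direct comparison gave 0.46 (SE 0.16, adjusted p = 0.0119; 0.28, adjusted p = 0.109 without Tg-GRK2 library 3). Ifitm1 passed in Tg-RKIP against FVB with library size scaling (0.55, adjusted p = 0.00246) and on log2(TPM + 0.1) (0.58, adjusted p = 0.0049). Several marker lists summed above, those of macrophages, fibroblasts, B and plasma cells and neutrophils among them, were also highest in Tg-RKIP. Their part in the Bst2 and Ifitm3 values was not tested.

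The other type I effectors included genes that were clearly higher and genes that were clearly lower in Tg-RKIP hearts. Ifi27, a small protein of mitochondrial membranes, was at 1187, 1179 and 1239 normalised reads in Tg-RKIP, 691, 679 and 658 in FVB and 714, 722 and 710 in Tg-GRK2. The rise in Tg-RKIP was 0.83 (SE 0.04, adjusted p = 2.11e-14) in normalised reads. On the TPM scale, where most genes were higher in Tg-RKIP, Ifi27 was at 37.9 ± 3.21 in FVB and 95.1 ± 3.07 in Tg-RKIP. Rsad2, which encodes viperin, an enzyme that makes a chain-terminating nucleotide, was at 107, 104 and 109 in Tg-RKIP, 210, 239 and 231 in FVB and 190, 244 and 203 in Tg-GRK2. The Tg-RKIP libraries lay below all others, and the difference to FVB was -1.09 (SE 0.10, adjusted p = 4.76e-09), while it was -0.10 (adjusted p = 0.496) in Tg-GRK2. Ifi44, an interferon-induced gene of little known function, was at 21.5, 32.1 and 38.4 in Tg-RKIP against 55.4, 62.3 and 60.1 in FVB (-0.95, SE 0.21, adjusted p = 0.000371). Parp14, a mono-ADP-ribosyltransferase, was at 615, 659 and 670 in Tg-RKIP, 790, 780 and 805 in Tg-GRK2 and 1013, 1016 and 1057 in FVB. It was lower by -0.66 (SE 0.04, adjusted p = 4.39e-12) and -0.38 (SE 0.04, adjusted p = 6.81e-07), with no overlap among the 3 groups.

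Isg20, an exonuclease that degrades single-stranded RNA, was higher in both transgenic groups, with 76.7, 64.2 and 58.6 normalised reads in Tg-RKIP, 84.1, 68.6 and 65.9 in Tg-GRK2 and 47.3, 38.8 and 44.8 in FVB. The differences were 0.61 (SE 0.18, adjusted p = 0.00428) and 0.74 (SE 0.18, adjusted p = 0.00402). Its reads moved among 3 transcripts from library to library (ENSMUST00000120331 had 0, 32 and 0 reads in Tg-GRK2), so that only the gene sum can be compared. Ifi35, which binds the regulator NMI, was at 555, 517 and 577 in Tg-RKIP, 439, 485 and 498 in FVB and 395, 370 and 371 in Tg-GRK2. It was higher by 0.21 (SE 0.06, adjusted p = 0.00323) in Tg-RKIP and lower by -0.33 (SE 0.06, adjusted p = 0.00065) in Tg-GRK2. Trim30a, a restraining factor of inflammatory signalling, passed in Tg-GRK2 at -0.22 (adjusted p = 0.0281), and that call was lost when any 1 of the Tg-GRK2 libraries or FVB library 3 was left out (adjusted p between 0.0557 and 0.158). Rtp4, a transporter of receptors to the membrane (0.16 and 0.09), and Xaf1, a promoter of cell death (-0.05 and -0.14), did not pass in either comparison. In Tg-RKIP, Rtp4 passed with library size scaling (0.53, adjusted p = 3.62e-05) and on log2(TPM + 0.1) (0.56, adjusted p = 0.000628). With library size scaling Xaf1 turned to 0.32 and Trim30a to 0.24 in Tg-RKIP (without FVB library 2 Trim30a was at -0.18, adjusted p = 0.0429).

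**Figure D4:**
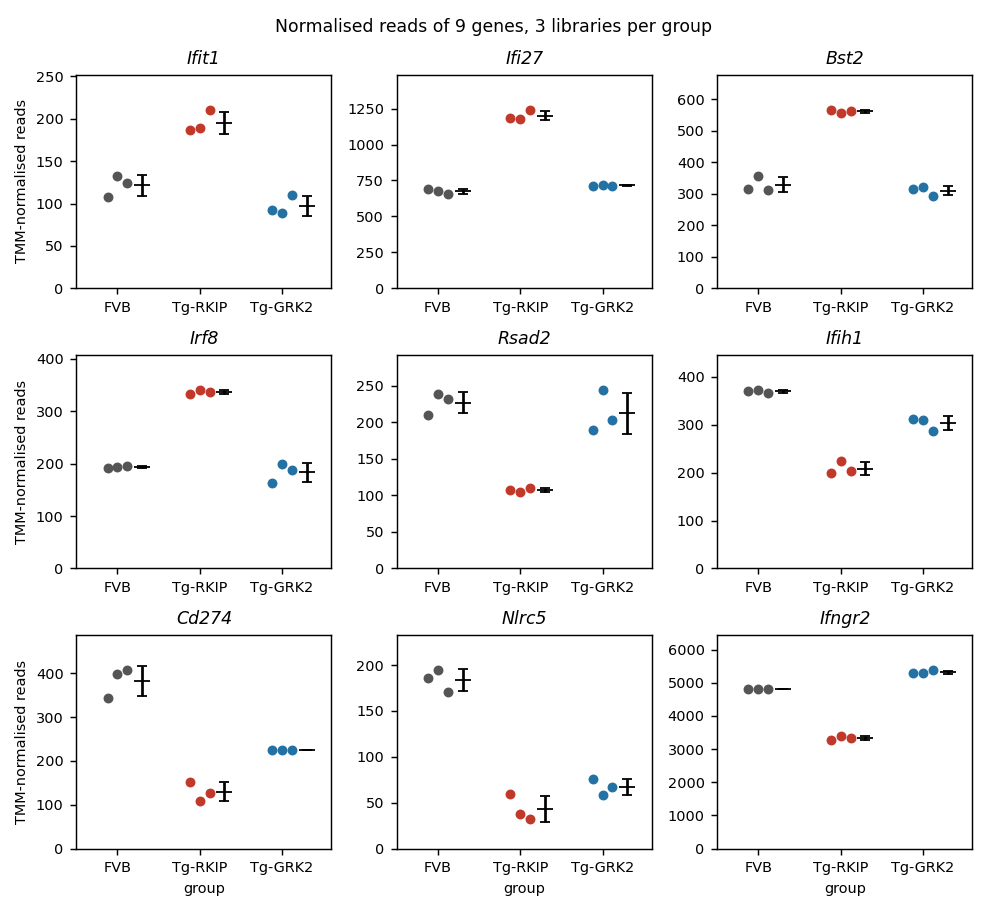
Normalised reads (axis from 0) of 9 genes in the 3 libraries of each group, with mean and SD beside the points. The Tg-RKIP libraries stand above the other 6 for Ifit1, Ifi27, Bst2 and Irf8 and below them for Rsad2, Ifih1, Cd274 and Ifngr2, and for Nlrc5 they overlap with Tg-GRK2 below FVB.

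The chains of the interferon-gamma receptor moved apart in Tg-RKIP hearts. Ifngr2, the signalling chain, was at 3271, 3398 and 3327 normalised reads in Tg-RKIP, 4806, 4816 and 4821 in FVB and 5282, 5306 and 5370 in Tg-GRK2. The 3 groups did not overlap. The log2 fold change was -0.53 (SE 0.02, adjusted p = 2.16e-15) in Tg-RKIP and 0.14 (SE 0.02, adjusted p = 2.79e-05) in Tg-GRK2. Ifngr1, the ligand-binding chain, was at 1954, 1973 and 2054 in Tg-RKIP, 1580, 1619 and 1680 in FVB and 1619, 1528 and 1644 in Tg-GRK2, a rise of 0.29 (SE 0.03, adjusted p = 1.03e-07) in Tg-RKIP.

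The rise of Ifngr1 lay in a transcript that is annotated as subject to nonsense-mediated decay. This transcript, ENSMUST00000164591 of 1974 bases, had 1138, 1707 and 1278 reads in Tg-RKIP, 659, 344 and 479 in FVB and 445, 675 and 551 in Tg-GRK2, and the Tg-RKIP libraries did not overlap with the others. In normalised reads it was at 1179 ± 99.7 in Tg-RKIP and 559 ± 205 in FVB (n = 3). The protein-coding transcript ENSMUST00000020188 of 2112 bases had 950, 991 and 860 reads in Tg-RKIP and 709, 1233 and 942 in FVB, and in normalised reads it was at 812 ± 83.4 and 1063 ± 224. When the most abundant transcript stood for the gene, the difference of Ifngr1 in Tg-RKIP against FVB turned to -0.43. It did not pass in edgeR's test (adjusted p = 0.0756). Reads of 50 bases were divided between transcripts by a rule not given in the sources used here.

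**Figure D5:**
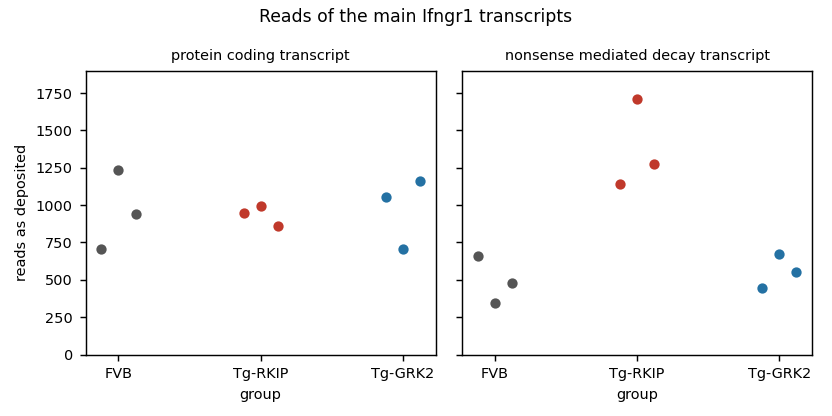
Reads, as deposited, of the protein-coding (left) and the nonsense-mediated decay transcript (right) of Ifngr1 in the 3 libraries of each group. In the right panel the Tg-RKIP libraries, at 1138 to 1707 reads, are above the 344 to 675 reads of the other 6, and in the left panel the groups overlap.

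Of the transcription factors and co-activators of the interferon-gamma response, Nlrc5 had the largest fall in normalised reads. Nlrc5 encodes the transactivator of MHC class I genes. It was at 58.9, 38.0 and 32.6 normalised reads in Tg-RKIP, 75.5, 58.7 and 66.9 in Tg-GRK2 and 186, 194 and 171 in FVB. Both transgenic groups lay below FVB, by -2.10 (SE 0.16, adjusted p = 8.32e-11) and -1.45 (SE 0.15, adjusted p = 2.3e-07). The transcript ENSMUST00000053085 was at 109 ± 52.6 normalised reads in FVB, 19.4 in Tg-RKIP and 25.5 in Tg-GRK2 on average. On the TPM scale, where short transcripts weigh more, Nlrc5 was at 1.32 ± 0.30, 1.10 ± 0.71 and 2.35 ± 0.73 TPM in Tg-RKIP, Tg-GRK2 and FVB, and with limma on log2(TPM + 0.1) the differences of -0.76 and -1.13 did not pass (adjusted p = 0.0864 and 0.0619). Ciita, the transactivator of MHC class II genes, was at 33.4, 57.6 and 46.8 in Tg-GRK2, 104, 101 and 113 in FVB and 82.3, 109 and 87.4 in Tg-RKIP. It was lower in Tg-GRK2 by -1.20 (SE 0.18, adjusted p = 2.1e-05) and did not pass in Tg-RKIP (-0.18, adjusted p = 0.292), and the direct difference was 1.03 (SE 0.17, adjusted p = 1.63e-05). Irf8, a factor of macrophage and dendritic cell development, was at 334, 340 and 336 in Tg-RKIP, 192, 193 and 196 in FVB and 164, 199 and 188 in Tg-GRK2. Irf8 was higher in Tg-RKIP by 0.80 (SE 0.08, adjusted p = 4.01e-09). In the same libraries the sums of macrophage markers (491 to 497 against 197 to 203 TPM) and dendritic cell markers (12.7 to 13.7 against 7.14 to 7.34 TPM) were higher. In normalised reads 1 marker of each list was lower, and the part of these cells in the Irf8 value was not tested. Irf1, an early target of interferon-gamma signalling, was at 771, 781 and 802 in Tg-RKIP, 612, 629 and 642 in Tg-GRK2 and 875, 872 and 936 in FVB, with -0.51 (SE 0.04, adjusted p = 1.95e-08) in Tg-GRK2, and with -0.19 (SE 0.04, adjusted p = 0.000393) in Tg-RKIP, a direction that turned to 0.19 with library size scaling and to 0.22 on log2(TPM + 0.1).

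Cd274 and Socs1, which restrain the response, moved in opposite directions in Tg-RKIP hearts. Cd274 encodes PD-L1, a ligand that inhibits T cells. It was at 152, 109 and 127 normalised reads in Tg-RKIP, 225, 225 and 225 in Tg-GRK2 and 344, 399 and 407 in FVB. The groups did not overlap, and the differences to FVB were -1.58 (SE 0.10, adjusted p = 2.62e-12) and -0.77 (SE 0.09, adjusted p = 1.46e-06). In TPM the level was 2.27 ± 0.39, 3.05 ± 0.024 and 5.02 ± 0.42. Socs1, an inhibitor of JAK kinases, was at 28.1, 32.1 and 33.6 in Tg-RKIP, 15.0, 21.5 and 14.2 in FVB and 16.2, 12.2 and 16.2 in Tg-GRK2, higher in Tg-RKIP by 0.87 (SE 0.27, adjusted p = 0.00584) and not past the threshold in Tg-GRK2 (-0.19, adjusted p = 0.722).

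By level per length, the receptors and membrane proteins led the 42 genes. In FVB hearts the order began with Ifitm3 (113 ± 5.41 TPM), Ifngr2 (105 ± 3.23 TPM), Ifi27 (37.9 ± 3.21 TPM), Ifngr1 (37.6 ± 0.96 TPM), Ifnar2 (27.6 ± 1.47 TPM) and Irf1 (20.3 ± 0.61 TPM). Ifi27 and Ifngr1 differed by less than their spread, and Ifitm3 and Ifngr2 by about the sum of their SDs. The median gene was at 4.35 TPM in FVB hearts, 5.64 in Tg-RKIP and 3.90 in Tg-GRK2. Dhx58, Oas3, Oasl1, Mx1 and Socs1 were under 1 TPM in every FVB library. In Tg-GRK2 hearts Ifngr2 (121 ± 2.17 TPM) stood before Ifitm3 (110 ± 3.95 TPM), and in Tg-RKIP hearts Ifi27 (95.1 ± 3.07 TPM) stood at the level of Ifngr2 (91.7 ± 2.54 TPM).

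Other genes of the pathway were counted from a list of 75 with the ligands, the kinases and STATs, the genes that induce interferon, negative regulators and further interferon-stimulated genes. No ligand could be tested. Of 21 interferon genes, Ifng had 0 to 4 reads in a library, Ifnz had 6 and 4 reads in a single Tg-RKIP and a single FVB library, Ifnk had 1 read in 1 FVB library, and the other ligands of the list had 0 reads. Of 51 genes tested, 20 rose and 21 fell in Tg-RKIP hearts compared to FVB, close to the shares of all genes (36.8% and 37.1%), and 6 were higher and 15 lower in Tg-GRK2, where the shares of all genes were 12.2% and 12.2%.

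Among the further interferon-stimulated genes, 8 were higher and 13 lower of 24 tested in Tg-RKIP (36.8% and 37.1% over all genes), and 2 higher and 10 lower in Tg-GRK2 (12.2% and 12.2% over all genes). Ifi27l2a, a relative of Ifi27, was higher by 1.62 (SE 0.07, adjusted p = 7.68e-15) in Tg-RKIP and by 0.71 (SE 0.08, adjusted p = 1.1e-06) in Tg-GRK2, and Ifi30, a lysosomal thiol reductase of antigen-presenting cells, by 1.12 (SE 0.06, adjusted p = 5.96e-13) in Tg-RKIP. In Tg-GRK2 the largest falls of this list were in Cxcl10 (-1.51, SE 0.42, adjusted p = 0.0107; 4 to 7 reads against 12 to 18), Cxcl9 (-1.28, SE 0.26, adjusted p = 0.000825), Tap1 (-1.21, SE 0.08, adjusted p = 7.08e-11) and Psmb9 (from 382 to 191 normalised reads on average, adjusted p = 1.07e-09). Cxcl9 and Cxcl10 are chemokines that attract T cells, and Tap1 and Psmb9 serve the supply of peptides to MHC class I. In Tg-RKIP the values of these 4 genes were 0.10 for Cxcl10 (adjusted p = 0.792), -0.82 for Cxcl9 (adjusted p = 0.00418), -0.61 for Tap1 (adjusted p = 3.92e-08) and -0.41 for Psmb9 (adjusted p = 9.45e-06). On the TPM scale Psmb9 was at 23.7 ± 0.49 in Tg-RKIP and 23.0 ± 1.61 in FVB, so that its direction there depended on the scaling. T and NK cell markers, summed above, were at 2.75 to 3.42 TPM in Tg-GRK2 and 4.53 to 4.99 TPM in FVB. In edgeR's test 0 of the 9 T and NK cell markers tested were called in that comparison, with 3 lower and none higher at an unadjusted p under 0.05, and the part of these cells in the chemokine values was not tested.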

How the data were processed

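Per the labels, cDNA of fragmented mRNA from 9 mouse hearts was primed with random hexamers and sequenced as single reads of 50 bases, with the genome build GRCm39. The aligner, the counting program and the treatment of reads shared by transcripts or by similar genes are not given in the sources used here. The authors deposited read counts per transcript without normalization, for 127558 transcripts, and TPM per transcript, which equalled TPM recomputed from counts and lengths within 5.5e-06. Both were summed by gene name (41710 names).

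Counts were tested with edgeR 4.0.16 in R 4.3.3 (TMM, filterByExpr, glmQLFit and glmQLFTest, 1 mean per group over 9 libraries), with p-values adjusted by Benjamini-Hochberg over 15504 genes and a threshold of 0.05. In simulated data for Tg-RKIP against FVB, 50 of 15228 genes were changed at each of 4 folds. Recovered were 100% of genes changed by 2-fold, 94% by 1.5-fold, 72% by 0.75-fold and 98% by 0.5-fold. Of 192 calls 10 were false. In the data 36.8% of genes were higher and 37.1% lower, far more than were changed in the simulation. The simulation therefore checks the procedure and gives no error rate for these data. Alternatives used DESeq2 1.42.0, limma 3.58.1 on log2(TPM + 0.1) or log2(TPM + 1), other scalings and filters, and omission of single libraries. The floor of 3 reads per library served to describe low levels, and no gene or library was filtered by it. Intervals cover counting error only. Promoter sequences and motif searches used RefSeq GRCm38.p6, and no coordinates were moved between builds.

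All 42 genes are named, by role. Of 75 pathway genes those past the threshold with a log2 fold change of at least 1 in size in either comparison against FVB are named, except for 1 that is not reported here. The genes, lists and roles were chosen with earlier results of these data known.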

Additional observations from a re-analysis of the deposited data

Results flagged for a closer look

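For 3 genes the transgenic groups moved in opposite directions against the same FVB libraries, with each difference past the threshold, and the difference between Tg-RKIP and Tg-GRK2 itself passed as well (edgeR's quasi-likelihood test). Ifi35 was 0.21 higher in Tg-RKIP and -0.33 in Tg-GRK2, and the difference between both was 0.53 (SE 0.06, adjusted p = 6.28e-08). Ifit3 was at 0.49 and -0.40, with a difference of 0.89 (SE 0.12, adjusted p = 6.47e-07), and its call in Tg-GRK2 was lost without FVB library 2 (adjusted p = 0.304), without Tg-GRK2 library 2 (adjusted p = 0.0596) or 3 (adjusted p = 0.12), and on log2(TPM + 0.1) (-0.31, adjusted p = 0.155). Ifngr2 went the other way, with -0.53 in Tg-RKIP and 0.14 in Tg-GRK2 and a difference of -0.67 (SE 0.02, adjusted p = 2.12e-17).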

How the results depend on the processing

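Scaling by TMM and by the size factors of DESeq2 gave the same counts of genes higher and lower (18 and 11, 3 and 13, 21 and 9), and so did a replicate block. The replicate numbers do not pair the libraries (r of their deviations between -0.061 and 0.038 for equal numbers), and with the replicate block 126 of 126 single values kept direction and call. With DESeq2 this held for 124 of 126, and for 726 of 756 with 1 library left out. The counts with 1 library left out ranged over 16 to 18 higher and 11 to 12 lower in Tg-RKIP against FVB, 2 to 3 and 11 to 14 in Tg-GRK2 against FVB, and 20 to 22 and 9 in Tg-RKIP against Tg-GRK2.

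Scaling to library size only, which moved the median of all genes in Tg-RKIP against FVB to 0.38, gave 30 higher in Tg-RKIP than FVB and 5 lower than Tg-GRK2. Limma on log2(TPM + 0.1) or log2(TPM + 1) gave 6 lower in Tg-RKIP and 7 lower in Tg-GRK2 than FVB, and 5 lower in Tg-RKIP than Tg-GRK2. Without a filter limma gave 29 higher and 6 lower in Tg-RKIP than FVB, 7 lower in Tg-GRK2 than FVB and 3 lower in Tg-RKIP than Tg-GRK2. A test against a 1.5-fold change (glmTreat in edgeR) left 4 higher and 6 lower, 0 and 2, and 8 and 3, where the 0 was also 0 at an unadjusted p under 0.05 (3 in the test without a minimum fold, 3 by DESeq2). With the most abundant transcript of each gene, edgeR called 0 genes higher (1 at an unadjusted p under 0.05) and 7 lower in Tg-GRK2 than FVB. For none of the alternatives in this section were shares over all genes counted, so these counts have no background beside them.

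Directions turned in Tg-RKIP against FVB with library size scaling, log2(TPM + 0.1) with or without a filter, and log2(TPM + 1), in this order, to 0.32, 0.34 and 0.31 for Ifnar1, 0.32, 0.32 and 0.28 for Irf7, 0.37, 0.41 and 0.36 for Ddx58, 0.34, 0.37 and 0.34 for Ifit2, 0.37, 0.41 and 0.24 for Oas2, 0.32, 0.38 and 0.34 for Xaf1, 0.24, 0.25 and 0.21 for Trim30a, and 0.19, 0.22 and 0.21 for Irf1. Against Tg-GRK2 they turned to 0.32, 0.29 and 0.27 for Ifnar1, 0.0784, 0.0224 and 0.0185 for Stat2 and 0.0745, 0.0728 and 0.0627 for Parp14, and, on the TPM scales, to 0.38 and 0.19 for Nlrc5. With the most abundant transcript Ifngr1 turned to -0.43 (against FVB) and -0.36 (against Tg-GRK2) in Tg-RKIP, Stat2 to 0.30, Ifih1 to 0.0349 and Isg20 to -1.11 in Tg-GRK2 against FVB, and Ddx58 to -0.69 and Nlrc5 to 3.44 in Tg-RKIP against Tg-GRK2. Of the turned values against Tg-GRK2 under other scalings, those of Ifnar1 passed the threshold and those of Stat2, Parp14 and Nlrc5 did not. Of the values with the most abundant transcript, those of Ddx58 and Nlrc5 passed, and those of Ifngr1, Stat2, Ifih1 and Isg20 did not. The cause of the turned directions was not tested. Depth limits Oas3 and Mx1, which had 8 or fewer reads in every FVB and Tg-GRK2 library.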
